A study of Mus musculus with 12 samples.

Results

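Genes that write, maintain and remove DNA methylation were followed in mouse lung tumors treated with a CDK4/6 inhibitor, an anti-PD-1 antibody or both. The group comprised the DNA methyltransferase genes Dnmt1, Dnmt3a and Dnmt3b, the maintenance cofactor Uhrf1, and the TET dioxygenase genes Tet1, Tet2 and Tet3. These 7 genes were chosen by symbol, for their function, from 34678 gene symbols in the deposited tables, and all 7 were present. The values are FPKM, that is fragments mapped to a gene scaled to its length and to the size of the library, so levels of different genes can be set side by side.

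All tumors grew from LLC1-shLkb1 cells in C57BL/6 mice aged 6 to 8 weeks at the start. In this mouse Lewis lung carcinoma line a short hairpin RNA targets Lkb1 (gene symbol Stk11). The paper describes tumors under the skin and in the left chest, and its sequencing methods do not name the site. Because every arm carried the hairpin, Stk11 (7.90 to 11.5 FPKM) was not compared with unmodified cells. The 4 arms, each of 3 tumors, received vehicle with a control IgG, palbociclib (100 mg/kg by mouth on days 1 to 3 of each 7-day cycle), anti-PD-1 antibody (200 µg per mouse into the peritoneum, 3 times a week) or their combination, and tumors were taken after 2 weeks. The day within the dosing cycle on which tumors were taken is not given in the sources used here. The running numbers in the sample titles do not overlap between arms. They rise from the combination through anti-PD-1 and palbociclib to vehicle, which is highest. Any grouping or order they stand for cannot be told apart from the arms, whichever arms are compared.

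DNA methylation is laid down on unmethylated CpG sites mainly by DNMT3A and DNMT3B. At each round of DNA replication UHRF1 recognizes hemimethylated CpG sites and brings in DNMT1, which copies the mark onto the new strand. TET enzymes oxidize methylcytosine, which opens the way to its removal by base excision repair or by dilution through replication. Dnmt1 and Uhrf1 are known targets of the E2F factors, which the RB protein holds back until CDK4/6 phosphorylates it, and a fall of Dnmt1 has been proposed elsewhere as a route from CDK4/6 inhibition to an interferon response. The comparison of palbociclib-treated with other tumors therefore asks, first, whether Dnmt1 was lower.

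The sequences just before the start sites of Dnmt1 and Uhrf1 are shown because they hold an E2F octamer, whereas the windows of the other 5 genes do not. Windows of 300 bases, from 250 before to 50 after each RefSeq start site on GRCm38.p6, were searched on both strands for TTTCCCGC, TTTCGCGC, TTTGGCGC and TTTGCCGC, and no 2 matches overlapped. All 7 genes had entries, with 12 windows, of which 1 of 3 for Dnmt1 and 1 of 2 for Uhrf1 held a match. The 250 bases before the start site are printed 5′ to 3′ on the strand of the gene, with the octamer in capitals (GCGCGAAA in Dnmt1 is TTTCGCGC on the opposite strand).
Dnmt1 (chr9:20952624-20952873, minus strand): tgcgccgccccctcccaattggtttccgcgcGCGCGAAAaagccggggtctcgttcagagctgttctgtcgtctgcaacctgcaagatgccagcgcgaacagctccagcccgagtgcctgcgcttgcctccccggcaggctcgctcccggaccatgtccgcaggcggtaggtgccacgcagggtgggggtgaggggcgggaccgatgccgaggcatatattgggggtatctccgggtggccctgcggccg
Uhrf1 (chr17:56304063-56304312, plus strand): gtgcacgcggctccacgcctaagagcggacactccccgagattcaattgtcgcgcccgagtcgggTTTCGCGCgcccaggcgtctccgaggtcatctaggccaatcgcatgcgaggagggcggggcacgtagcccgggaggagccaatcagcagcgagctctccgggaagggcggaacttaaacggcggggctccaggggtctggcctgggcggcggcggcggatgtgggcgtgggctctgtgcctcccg
The octamer began 219 bases before the start site in Dnmt1 and 185 before it in Uhrf1, and the same Dnmt1 window held TTTGGCGC from base 34 after the start site. One or more of these octamers stood in 2.27% of all 32851 promoter windows, in 3.66% of the 13414 windows of genes tested here, and in 10 of 22 windows of S phase genes. The 12 windows were rich in CpG, with a median of 26 against 7 over all windows and 19 over those of genes tested here, and the highest number, 57, was in Tet2. Methylation of these bases was not measured in the data used here, and a match of letters is not evidence of binding.

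Over the 12 tumors the 7 genes differed widely in level. Dnmt1 (chromosome 9, 20907209 to 20959888 on GRCm38) was at 85.2 ± 7.17 FPKM (SD, n = 12), above 97.3% of the 15350 genes tested. Uhrf1 (chromosome 17, 56303321 to 56323486) followed at 48.9 ± 5.43 FPKM (SD, n = 12). Tet3 (chromosome 6, 83362373 to 83459084) was the most abundant TET gene at 5.12 FPKM, and Dnmt3a (chromosome 12, 3806007 to 3914443) the next DNA methyltransferase at 3.65 FPKM. Tet2 (chromosome 3, 133463679 to 133545139) and Dnmt3b (chromosome 2, 153649450 to 153687730) were low, at 1.35 and 1.25 FPKM. Dnmt1 lay above Uhrf1, Uhrf1 above Tet3 and Tet3 above Dnmt3a in all 12 tumors. The neighbours Tet2 and Dnmt3b could not be ranked, since Dnmt3b lay above Tet2 in 8 of 12 tumors. Dnmt1 took 92.2% to 96.2% of the summed FPKM of the 3 DNA methyltransferase genes, and Tet3 took 59.5% to 86.0% of that of the 3 TET genes, with the lowest share in vehicle replicate 2.

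Tet1 (chromosome 10, 62804570 to 62908996), a TET gene known from embryonic stem cells, was close to absent. It was listed at 0 in 3 tumors and reached at most 0.0101 FPKM, with an estimated 13 fragments in all 12 libraries together. That number rests on an annotated exon length that may not be the one used for the FPKM, since the steps between the Tet1 values were smaller than this length gives. Fragment numbers were estimated from the steps between low FPKM values and gave 14900000 to 20300000 per tumor, with 127353 fragments over the 12 tumors for Dnmt1, 42128 for Uhrf1, 17365 for Tet3, 12227 for Dnmt3a, 4578 for Tet2 and 1292 for Dnmt3b. Differences in Tet1 were therefore not detectable at this depth, and no fold is given. The other 6 genes passed the filter of a mean of 0.1 FPKM.

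**Figure D1:**
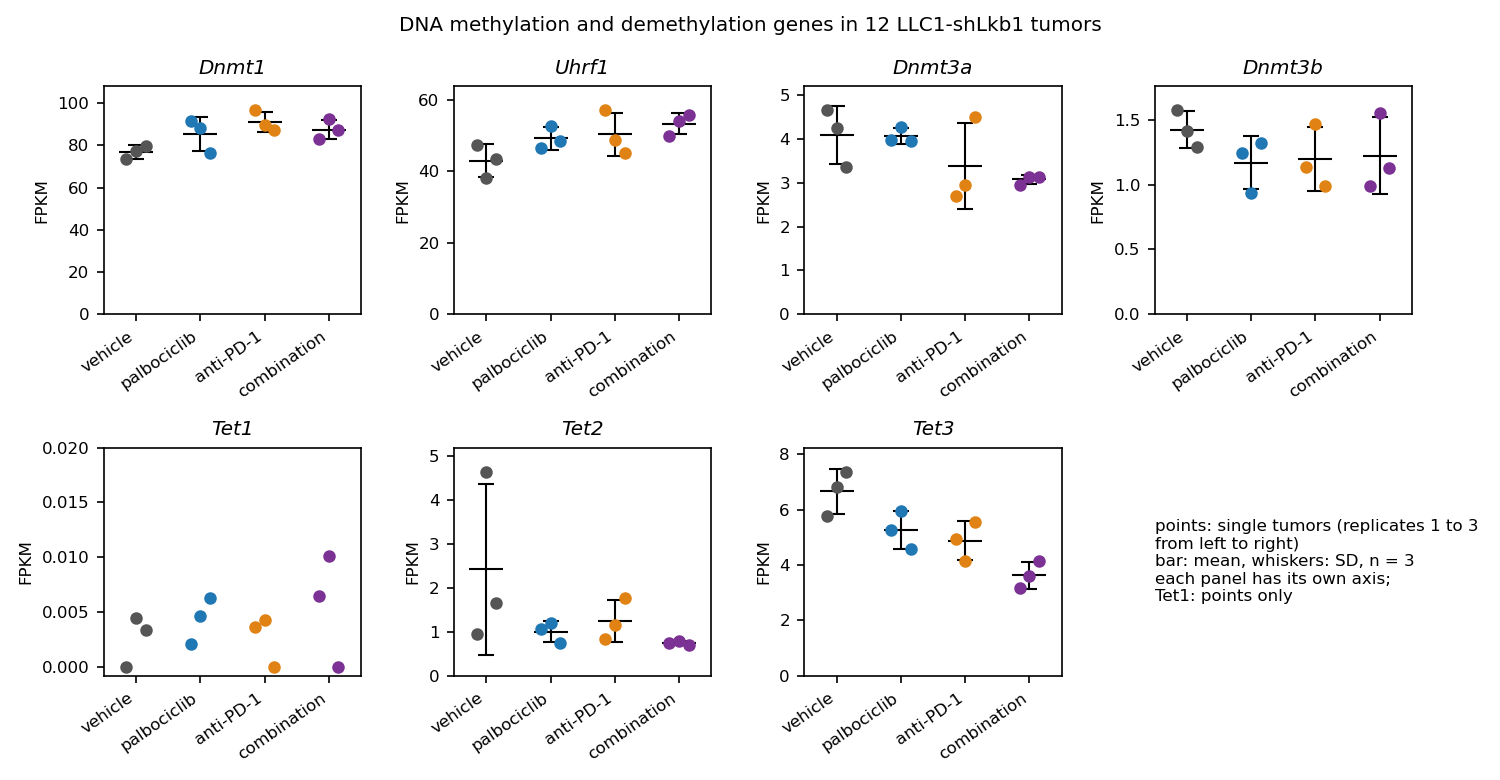
FPKM of each gene in the 12 tumors by arm, with the mean and SD of 3 tumors (no mean for Tet1) and a separate axis for each gene. Dnmt1 lay lowest in the vehicle arm (73.5 to 79.9 FPKM), Tet3 lowest in the combination arm (3.16 to 4.14 FPKM), and 1 vehicle tumor stood apart for Tet2 (4.64 FPKM).

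The tumors are labelled as lung adenocarcinoma, and of 5 epithelial carcinoma markers Krt8 was high (62.0 to 276 FPKM). Epcam, Cdh1, Krt18 and Krt19 lay below 1 FPKM in 10, 11, 10 and 11 of the 12 tumors. No cultured LLC1 cells were among the samples, so these levels do not speak to purity. Genes of other tissues and of leukocytes showed that the tumors were not pure. The mean log2 level of a list of fat, skeletal muscle or skin genes exceeded 2 in 6 tumors, namely all 3 palbociclib tumors, combination replicates 1 and 2 and vehicle replicate 1. In the other 6 tumors it was at most -0.34. The 8 leukocyte markers were all above 0 FPKM in every tumor and summed to 130 to 215 FPKM with vehicle, 199 to 294 with palbociclib, 101 to 192 in the anti-PD-1 arm and 150 to 307 in the combination arm. In bulk RNA, fewer cells of a type and less RNA per cell cannot be told apart.

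The palbociclib effect was defined as the mean of 2 differences on the log2(FPKM + 0.1) scale, palbociclib minus vehicle and combination minus anti-PD-1, and thus uses all 12 tumors. The anti-PD-1 effect was defined in the same way, and genes were called at a limma adjusted p-value (Benjamini-Hochberg) below 0.05 over all 15350 genes. The palbociclib effect called 48 genes (0.313%), palbociclib against vehicle 22 (0.143%), combination against vehicle 2 (0.013%) and combination against anti-PD-1 1 (0.00651%). The anti-PD-1 effect and the interaction called 0 genes with limma (0.0% for each), with 1039 and 879 genes at an unadjusted p below 0.05. None of the 6 tested genes of DNA methylation was called in any of these comparisons. The count of 48 rested on single tumors, since leaving out each in turn gave 0 to 758 (758 without anti-PD-1 replicate 1, 692 without vehicle replicate 1, 264 without combination replicate 2, and 0 without vehicle replicate 2, palbociclib replicate 3, anti-PD-1 replicate 2 or 3, or combination replicate 1, which are 5 of the 12 tumors).

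Dnmt1, the maintenance methyltransferase, was not detectably lower in palbociclib-treated tumors. It was at 73.5, 77.3 and 79.9 FPKM in the vehicle tumors and at 91.6, 88.0 and 76.3 FPKM with palbociclib. In the anti-PD-1 arm it stood at 96.5, 89.5 and 87.5 FPKM, and in the combination arm at 83.0, 92.3 and 87.1 FPKM. The vehicle tumors held 3 of the 4 lowest values, and palbociclib replicate 3 was the other. The palbociclib effect on Dnmt1 was 0.04 on the log2 scale (SE 0.07, limma adjusted p = 0.731; exact permutation test over 400 relabelings, two-sided p = 0.48), a fold of 1.03 with an unadjusted 95% interval from 0.932 to 1.14. Without anti-PD-1 the difference was 0.15 (SE 0.09, limma adjusted p = 0.471), and the interaction was -0.21 (SE 0.13, limma adjusted p = 0.899). The sign of the palbociclib effect depended on the scaling, since quantile normalization between tumors gave -0.02.

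With anti-PD-1, the Dnmt1 values of all 3 tumors exceeded those of all 3 vehicle tumors, as did those of the combination. Such separation upwards held for 4.25% of all genes tested for anti-PD-1 against vehicle and for 10.8% for the combination against vehicle. The anti-PD-1 effect on Dnmt1 was 0.14 (SE 0.07, limma adjusted p = 0.723; exact permutation test, two-sided p = 0.05).

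Uhrf1, which guides DNMT1 to replicated DNA, was at 47.3, 38.1 and 43.4 FPKM with vehicle and at 46.5, 52.6 and 48.4 FPKM with palbociclib. In the anti-PD-1 arm it stood at 57.0, 48.7 and 45.1 FPKM, and in the combination arm at 50.0, 54.2 and 55.6 FPKM. Vehicle and palbociclib overlapped, whereas all 3 combination tumors lay above all 3 vehicle tumors (a separation found for 10.8% of all genes). The palbociclib effect was 0.14 (SE 0.08, limma adjusted p = 0.319; exact permutation test, two-sided p = 0.095), while the anti-PD-1 effect was 0.17 (SE 0.08, limma adjusted p = 0.723; exact permutation test, two-sided p = 0.04). Combination against vehicle differed by 0.32 (SE 0.11, limma adjusted p = 0.222). The ratio of Uhrf1 to Dnmt1 FPKM ranged from 0.493 to 0.643, and the palbociclib effect on their log2 difference was 0.10 (exact permutation test, two-sided p = 0.215).

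Of the de novo enzymes, Dnmt3a was at 4.65, 4.26 and 3.36 FPKM with vehicle and at 3.97, 4.27 and 3.95 FPKM with palbociclib. In the anti-PD-1 arm it stood at 2.70, 2.94 and 4.51 FPKM, and in the combination arm at 2.95, 3.14 and 3.14 FPKM. The combination tumors all lay below the vehicle and below the palbociclib tumors, a separation downwards found for 11.6% and 9.15% of all genes tested. The palbociclib effect on Dnmt3a was -0.05 (SE 0.13, limma adjusted p = 0.858), and the anti-PD-1 effect was -0.34 (SE 0.13, limma adjusted p = 0.723; exact permutation test, two-sided p = 0.04), with anti-PD-1 replicate 3 among the highest tumors. Dnmt3b ranged from 0.935 FPKM in palbociclib replicate 2 to 1.57 FPKM in vehicle replicate 1, and no pair of arms was separated. Its palbociclib effect was -0.13 (SE 0.15, limma adjusted p = 0.644) and its anti-PD-1 effect -0.10 (SE 0.15, limma adjusted p = 0.888).

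The TET genes had the largest estimates of the group, all downwards. Tet3 was at 5.79, 6.83 and 7.37 FPKM with vehicle and at 5.27, 5.97 and 4.59 FPKM with palbociclib. In the anti-PD-1 arm it stood at 4.96, 4.16 and 5.55 FPKM, and in the combination arm at 3.16, 3.62 and 4.14 FPKM. The 3 combination tumors were the 3 lowest of all 12, below every tumor of the other arms, and the anti-PD-1 tumors all lay below the vehicle tumors. Palbociclib replicate 2 exceeded vehicle replicate 1, so these arms overlapped. Downward separation was found for 7.09% of all genes for anti-PD-1 against vehicle and for 7.49% for combination against anti-PD-1. For the combination it was found for 11.6% against vehicle and for 9.15% against palbociclib. How many genes had the 3 combination tumors as the lowest of all 12 was not counted. The palbociclib effect on Tet3 was -0.37 (SE 0.11, limma adjusted p = 0.119; exact permutation test, two-sided p = 0.015), the anti-PD-1 effect was -0.48 (SE 0.11, limma adjusted p = 0.723; exact permutation test, two-sided p = 0.005, the smallest the design allows). Combination against vehicle gave -0.86 (SE 0.15, limma adjusted p = 0.156), a fold of 0.553 with an unadjusted 95% interval from 0.437 to 0.699, and the interaction was -0.08 (SE 0.22, limma adjusted p = 0.981). The exact p-values are for single genes and are not adjusted for the 12 tests made with them.

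Tet2, a TET gene best known from blood cells, was at 0.961, 4.64 and 1.66 FPKM with vehicle and at 1.06, 1.20 and 0.739 FPKM with palbociclib. In the anti-PD-1 arm it stood at 0.826, 1.15 and 1.76 FPKM, and in the combination arm at 0.750, 0.783 and 0.692 FPKM. Vehicle replicate 2 stood far above the other 11 tumors. The combination tumors lay below all vehicle and all anti-PD-1 tumors, separations found for 11.6% and 7.49% of all genes. The palbociclib effect was -0.78 (SE 0.32, limma adjusted p = 0.211; exact permutation test, two-sided p = 0.04), or -0.48 without vehicle replicate 2 (limma adjusted p = 0.297). The anti-PD-1 effect was -0.52 (SE 0.32, limma adjusted p = 0.738; exact permutation test, two-sided p = 0.15) and -0.22 without that tumor. Combination against vehicle was -1.30 (SE 0.45, limma adjusted p = 0.220), and -0.70 without it.

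Markers of other cells were measured in the same contrasts, and 0 were called in the palbociclib effect. At an unadjusted p below 0.05, 7 of 8 leukocyte, 4 of 9 macrophage and 7 of 10 adipose markers were higher. Of the same lists 0, 1 and 0 were lower, and of 7 endothelial markers 3 were lower and 0 higher. The shares of all genes were 14.1% higher and 6.44% lower. Of 5 neutrophil markers, 0 were called in the palbociclib effect (lowest limma adjusted p = 0.143), 4 were lower at an unadjusted p below 0.05 (6.44% of all genes), and the median was -1.90. These markers, all above 0 in every tumor, summed to 31.4 to 538 FPKM with vehicle, 15.2 to 33.1 with palbociclib, 47.1 to 276 in the anti-PD-1 arm and 14.1 to 88.5 in the combination arm. The tumor highest in Tet2, vehicle replicate 2, was at 62.3 FPKM for these markers and vehicle replicate 3 at 538. Over the 12 tumors Tet2 and the mean of these markers had r = 0.37 and rho = 0.50 (permutation tests, adjusted p = 0.551 and p = 0.395). Some other marker lists gave larger values. Tet2 and T and NK cell markers had r = -0.54 and rho = -0.65 (permutation tests, adjusted p = 0.281 and p = 0.209). Dnmt3b and the epithelial markers had r = -0.70 and rho = -0.71 (permutation tests, adjusted p = 0.0865 and p = 0.149). For deviations from the arm means, not tested, r was -0.81 for Tet3 with fibroblast markers and -0.73 for Dnmt1 with T and NK cell markers. With the means of the fat, muscle and skin lists as covariates, an alternative chosen after seeing the data, the palbociclib effect was -0.27 for Tet2, -0.16 for Tet3, 0.06 for Uhrf1 and 0.06 for Dnmt1 (limma adjusted p = 0.9998 for each). The part of the other cells in these values was not tested further.

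Counting separated arms over the 6 genes, palbociclib against vehicle separated 0 upwards and 0 downwards, where 12.9% and 6.47% of all genes were separated. Anti-PD-1 against vehicle separated 1 upwards (Dnmt1) and 1 downwards (Tet3), where the shares of all genes were 4.25% and 7.09%. The combination against vehicle separated 2 upwards (Dnmt1 and Uhrf1) and 3 downwards (Dnmt3a, Tet2 and Tet3), where the shares were 10.8% and 11.6%. Against anti-PD-1 it separated 0 upwards and 2 downwards (Tet2 and Tet3), with 11.4% and 7.49% of all genes, and against palbociclib 0 upwards and 2 downwards (Dnmt3a and Tet3), with 4.52% and 9.15%. These comparisons share tumors. With 3 tumors against 3, an exact permutation test of a single pair of arms cannot go below p = 0.1.

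**Figure D2:**
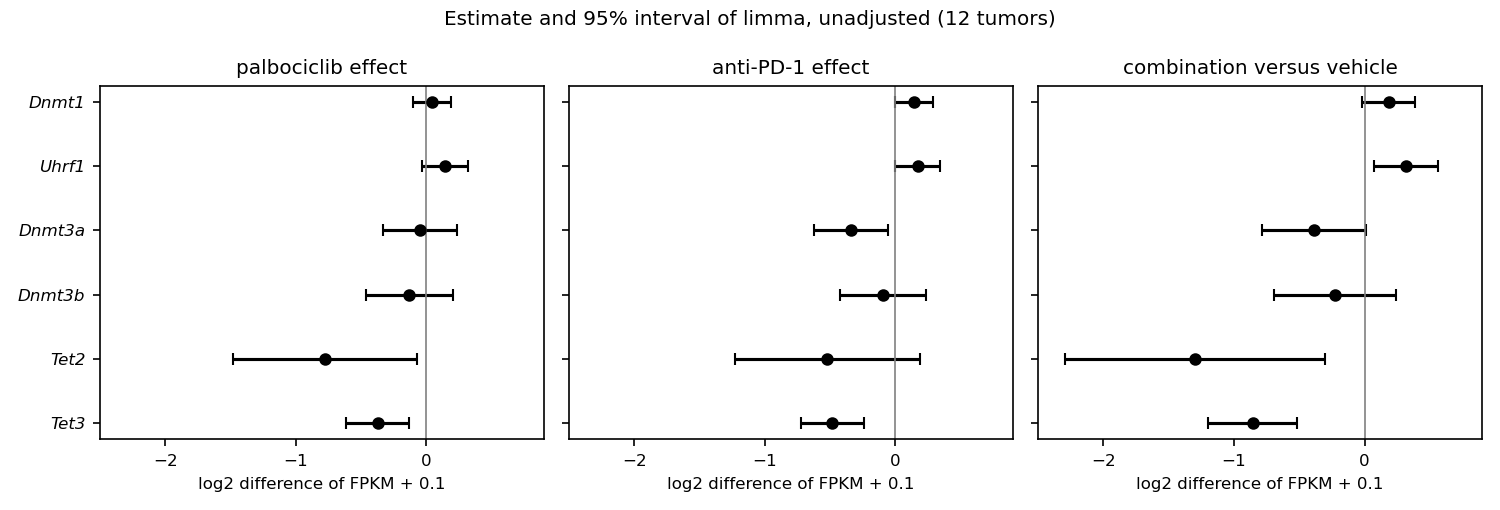
Estimates (points) and unadjusted 95% intervals (bars) of limma for 6 genes on the log2(FPKM + 0.1) scale, for the palbociclib effect, the anti-PD-1 effect and combination against vehicle. Tet3 lies at -0.37, -0.48 and -0.86 in the 3 panels, and Dnmt1 at 0.04, 0.14 and 0.18; none had an adjusted p-value below 0.05.

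Proliferation genes were set beside Dnmt1 and Uhrf1 because both are replication-linked. A list of 25 S phase genes, among them the MCM helicase subunits and the ribonucleotide reductase subunit Rrm2, summed to 531 to 627 FPKM with vehicle and 681 to 714 FPKM with palbociclib. With anti-PD-1 the sum was 598 to 767 FPKM, and with the combination it was 749 to 769 FPKM. All 25 had a palbociclib estimate above 0, and 0 were called. At an unadjusted p below 0.05, 14 of the 25 were higher and 0 lower, where 14.1% of all genes were higher and 6.44% lower. The median was 0.26, against 0.06 over all genes tested, and all 25 estimates stayed above 0 after rescaling to TPM, after quantile normalization and without vehicle replicate 2. Ccne1, which encodes cyclin E1, had an estimate of 0.66 (SE 0.15, limma adjusted p = 0.0828), and Rrm2 one of 0.40 (SE 0.09, limma adjusted p = 0.0736). For palbociclib against vehicle 13 of the 25 were higher at that p (9.43% of all genes), and for combination against anti-PD-1 6 (7.61%), with 0 called in either. The mitosis genes, 14 in number, had a median of 0.38, with 9 at an unadjusted p below 0.05 and 0 called.
For the anti-PD-1 effect, 7 of the 25 S phase genes were higher at an unadjusted p below 0.05, where 1.64% of all genes were higher and 5.13% lower. The median was 0.18, and 0 were called.

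Measured against these genes, the palbociclib effect on Dnmt1 pointed down. Dnmt1 minus the mean of the S phase genes, in log2(FPKM + 0.1), was 2.37 ± 0.23 with vehicle, 2.18 ± 0.14 with palbociclib, 2.38 ± 0.14 in the anti-PD-1 arm and 2.08 ± 0.07 in the combination arm (SD, n = 3 tumors each). The palbociclib effect on this difference was -0.24 (exact permutation test, two-sided p = 0.03). The p-value was 0.05 or more when each of 6 tumors was left out in turn (vehicle replicates 2 and 3, palbociclib replicates 2 and 3, anti-PD-1 replicate 3, combination replicate 1), with effects from -0.24 to -0.19. This difference sets 1 gene that had no detectable change against a list with positive estimates, and does not show that Dnmt1 fell.

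Across the 12 tumors Uhrf1 followed the S phase genes most closely of the group. Its correlation with their mean was r = 0.93 and rho = 0.92 (permutation tests, p = 2e-05 and p = 8e-05, adjusted p = 0.00258 and p = 0.0103 over 129 relations). Without the 2 tumors farthest from the median r was 0.82, and for deviations from the arm means it was 0.91. Dnmt1 showed a looser relation with r = 0.51 and rho = 0.51 (permutation tests, adjusted p = 0.378 and p = 0.377), and r = 0.17 within arms. Tet2 ran the other way with r = -0.90 and rho = -0.76 (permutation tests, adjusted p = 0.00322 and p = 0.117), r = -0.81 without the 2 farthest tumors and r = -0.82 for deviations from the arm means. Tet3 had r = -0.74 and rho = -0.69 (permutation tests, adjusted p = 0.0693 and p = 0.149), but r = -0.25 within arms. Uhrf1 and Tet2 were inversely related, with r = -0.85 and rho = -0.70 (permutation tests, adjusted p = 0.0112 and p = 0.149) and r = -0.74 within arms. That r was -0.65 without the 2 tumors farthest from the Tet2 median. Vehicle replicate 2 had both the highest Tet2 and the lowest Uhrf1. Dnmt1 and Uhrf1 had r = 0.60 and rho = 0.54 (permutation tests, adjusted p = 0.227 and p = 0.371). The permutations moved tumors between arms, so these p-values also take in differences between arms. The r within arms was not tested. All values of a tumor share 1 library, and FPKM of a library are bound to a common sum.

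**Figure D3:**
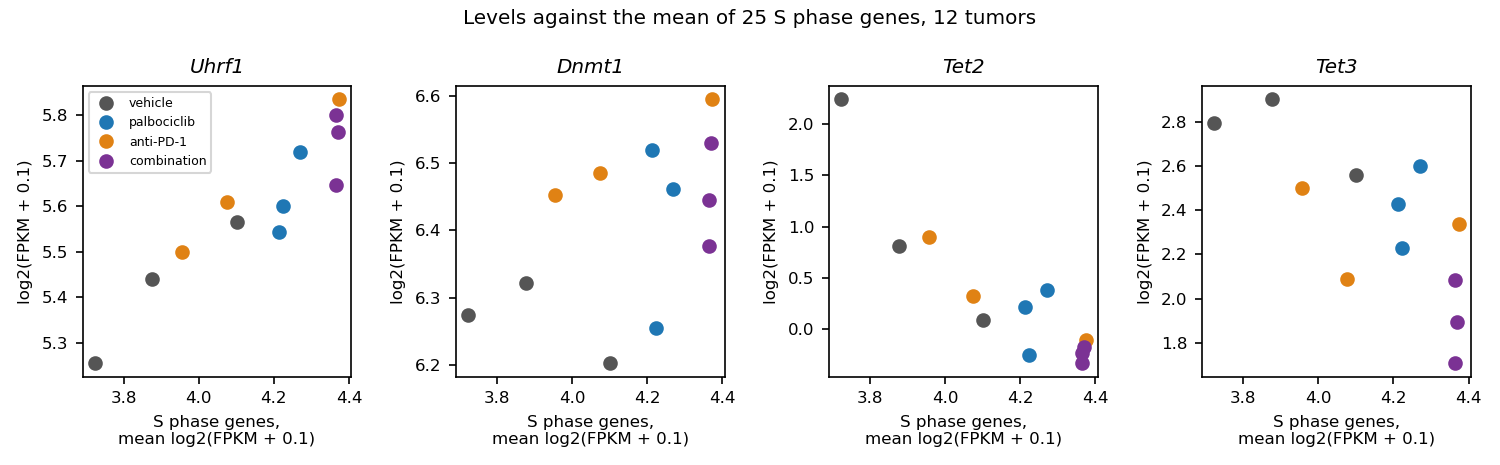
Level of Uhrf1, Dnmt1, Tet2 and Tet3 against the mean of 25 S phase genes, both in log2(FPKM + 0.1), 1 point per tumor colored by arm. Uhrf1 climbs with the S phase genes (r = 0.93) and Tet2 descends (r = -0.90), with vehicle replicate 2 at the far left of all panels.

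Over 11186 genes with a mean of at least 1 FPKM, the 3 most like each member in Pearson correlation over the 12 tumors were listed. They were Tex30, Gsk3a and Isy1 for Uhrf1 (r = 0.97, 0.97 and 0.96), and Cs, Ddx46 and Mcph1 for Dnmt1 (r = 0.92, 0.88 and 0.88). Tet3 was most like Ythdf3, Raph1 and Prickle3 (r = 0.96, 0.91 and 0.90), and Tet2 most like the predicted genes Gm15344 and Gm37123 and Abl1 (r = 0.98 for each). For Dnmt3a these were Galnt4, AU040320 and Zfp276 (r = 0.83, 0.82 and 0.82), and for Dnmt3b they were BC017158, Pcgf2 and Stk11 (r = 0.87, 0.84 and 0.82), the last being the gene the hairpin targets. These are the top of a large ranking and carry no test.

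Partners of the methylation machinery were measured as lists. Of 15 partners of DNA methylation, 0 were called in the palbociclib effect, with 2 higher and 1 lower at an unadjusted p below 0.05 (14.1% and 6.44% of all genes), and the median was 0.09. The 2 were 2810417H13Rik, the PCNA-associated factor now named Pclaf, at 0.44 (SE 0.11, limma adjusted p = 0.0911), and Pcna, the replication clamp that binds DNMT1, at 0.37 (SE 0.12, limma adjusted p = 0.132). Usp7, which deubiquitinates UHRF1 and DNMT1, had -0.13 (limma adjusted p = 0.236), and Hells, a chromatin remodeler needed for methylation of repeats, 0.09 (limma adjusted p = 0.527). Trim28, a corepressor of retroelements, was at 36.6 ± 2.74 FPKM with vehicle and 38.9 ± 1.31 with palbociclib (SD, n = 3).
Of the 16 genes of the methyl donor cycle, 15 were tested and 0 called, with 5 higher and 1 lower at an unadjusted p below 0.05 (14.1% and 6.44% of all genes). Mat2a, the synthase of S-adenosylmethionine, had an estimate of 0.49 (limma adjusted p = 0.191) and Ahcyl1 one of -0.50 (SE 0.14, limma adjusted p = 0.117). The list's median was 0.10.

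Readers and partners of the erasers held no called gene either. Of 9 methyl-CpG readers, 0 passed even the unadjusted threshold, with a median of -0.18. Of 16 partners of demethylation, 15 were tested, 0 were called, and 4 were lower and 0 higher at an unadjusted p below 0.05, where 6.44% of all genes were lower and 14.1% higher. These 4 were Gadd45b at -1.06 (SE 0.27, limma adjusted p = 0.0950), Gadd45a at -0.69 (SE 0.16, limma adjusted p = 0.0807), Gadd45g at -0.35 (limma adjusted p = 0.239) and Ogt at -0.29 (limma adjusted p = 0.213). The GADD45 proteins are stress-induced and have been linked to active demethylation, and OGT binds TET proteins. Tdg, the glycosylase that excises oxidized methylcytosine, had 0.01 (limma adjusted p = 0.987). Gadd45b, like Tet2, had its widest spread in the vehicle arm, at 33.0 ± 24.0 FPKM against 11.5 ± 0.381 with palbociclib (SD, n = 3).

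Genes known to be kept silent by DNA methylation were measured as a further readout. These lists, like the 7 genes, were chosen with earlier results of these data known. Of 20 germline genes, 6 were listed at 0 in all 12 tumors, 16 were under the filter with at most 0.212 FPKM, and 4 were tested. Dazl was at 0 in 11 tumors, and Mael and Sycp1 were at 0 in all 12. For the 4 tested, 0 were called or passed the unadjusted threshold, with palbociclib estimates from -0.03 to 0.22. Rhox5, a homeobox gene that DNA methylation silences in normal somatic tissue, was high in every tumor (254 to 372 FPKM), at 290 ± 27.5 FPKM with vehicle, 287 ± 29.8 with palbociclib, 310 ± 59.1 in the anti-PD-1 arm and 298 ± 31.2 in the combination arm (SD, n = 3). Its palbociclib effect was -0.03 (SE 0.11, limma adjusted p = 0.900). Of 20 imprinted genes, 15 were tested and 0 called, with 1 higher (Ndn, 0.34, limma adjusted p = 0.215) and 2 lower (Zrsr1, -0.38, limma adjusted p = 0.153, and Kcnq1ot1, -0.48, limma adjusted p = 0.233) at an unadjusted p below 0.05, where 14.1% of all genes were higher and 6.44% lower. Transcripts of endogenous retroviruses were not analysed here.

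The list of RNA and DNA sensing genes leading to interferon was the only 1 of the 19 other lists with called genes. Of 28, 27 were tested, 3 were called and all 3 rose, and 21 were higher and 0 lower at an unadjusted p below 0.05, where 14.1% of all genes were higher and 6.44% lower. Ifih1, the sensor of long double-stranded RNA known as MDA5, was at 1.33 ± 0.0567 FPKM with vehicle and 3.64 ± 0.493 with palbociclib alone. In the arms given antibody it was at 1.79 ± 0.480 without and 2.24 ± 0.290 FPKM with palbociclib (SD, n = 3), a palbociclib effect of 0.86 (SE 0.13, limma adjusted p = 0.0399). Tlr3, the endosomal double-stranded RNA receptor, rose by 0.68 (SE 0.11, limma adjusted p = 0.0399). Since no gene was called when any of the 5 tumors given above for the count of 48 was left out, or with tissue covariates, these 3 calls are lost at least in those fits. The list's median was 0.67. The comparisons without and with antibody gave different counts. For palbociclib against vehicle 3 of the 27 were called, 21 were higher and 0 lower at an unadjusted p below 0.05 (9.43% and 4.36% of all genes), and the median was 1.14. For combination against anti-PD-1 0 were called, 1 was higher and 1 lower (7.61% and 4.21% of all genes), and the median was 0.09. The list's sum was 332 to 360 FPKM with vehicle, 516 to 1057 with palbociclib, 365 to 486 in the anti-PD-1 arm and 472 to 491 in the combination arm, so the last pair of arms overlapped. Ifih1 differed by 1.39 without antibody (limma adjusted p = 0.0382) and by 0.33 with it (limma adjusted p = 0.497), and the interaction was -1.05 (SE 0.26, limma adjusted p = 0.736). In the palbociclib effect, 0 of the 11 T and NK cell markers were called. At an unadjusted p below 0.05, 7 were higher and 0 lower (14.1% and 6.44% of all genes). All 11 markers had an estimate above 0, with a median of 1.35. They summed to 26.5 to 57.5 FPKM with vehicle, 56.8 to 78.7 with palbociclib, 36.7 to 60.8 in the anti-PD-1 arm and 29.2 to 75.4 in the combination arm, and the part of these cells in the list's values was not tested. Across the 12 tumors Dnmt1 and the mean of this list were weakly related in the direction of more Dnmt1 with more of these genes, at r = 0.20 and rho = 0.36 (permutation tests, adjusted p = 0.779 and p = 0.545). That r was 0.77 without the 2 tumors farthest from the median and -0.19 for deviations from the arm means. Its size thus depended on 2 tumors, and its sign was negative within arms.

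**Figure D4:**
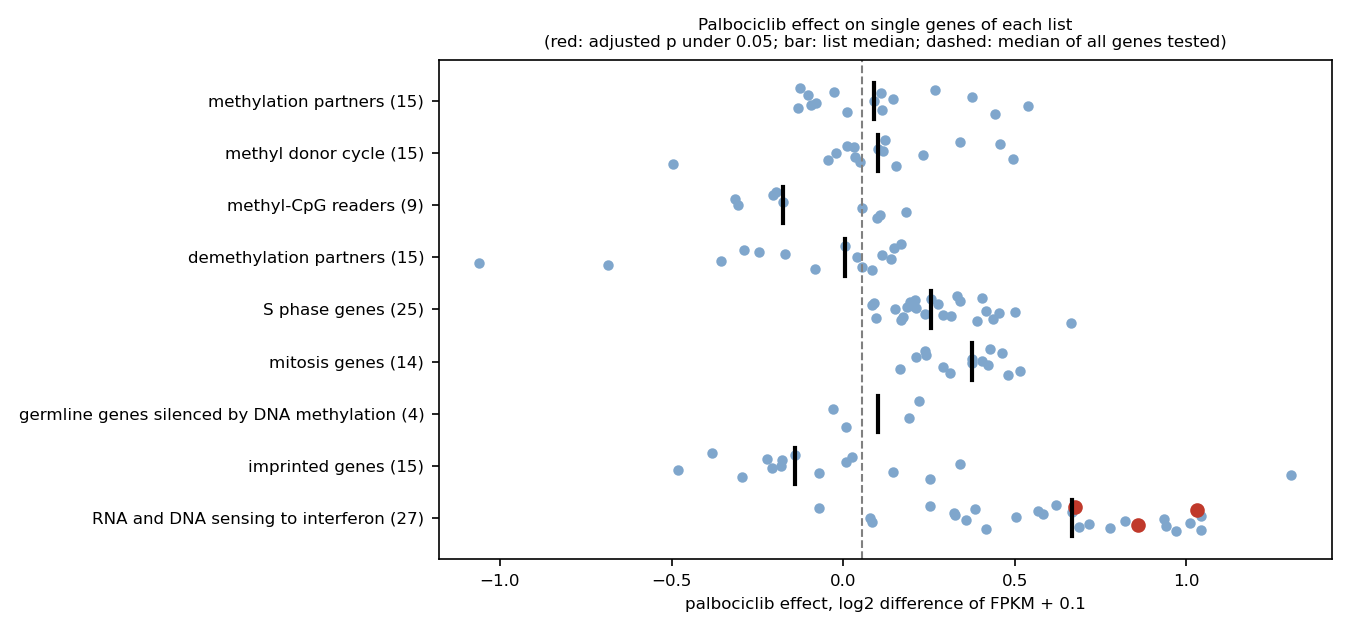
Palbociclib effect on each tested gene of 9 lists on the log2(FPKM + 0.1) scale (number tested in brackets), with called genes in red, list medians as bars and the median of all genes tested (0.06) dashed. Among these 9 lists sensing genes are shifted most (median 0.67), and S phase and mitosis genes less (0.26 and 0.38). Germline genes and the partners of methylation lie near the dashed line. Lists of cell type and tissue markers are not drawn. Their medians ran from -1.90 (neutrophil) to 2.88 (adipose), with 1.35 for T and NK cell markers.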

How the data were processed

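RNA from 12 tumors (4 arms of 3) was sequenced on an Illumina platform. The authors deposited 1 table of FPKM per tumor with 34745 entries. HISAT2 and GRCm38 (mm10) are named in the submitters' processing notes, while the counting tool and annotation are not given in the sources used here, so that reads shared between paralogs may be split in unknown ways. For 67 repeated symbols the entry with the highest mean was kept.

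After a filter that kept 15350 of 22912 expressed genes (mean over all tumors 0.1 FPKM or more), values were log2 transformed with a pseudocount of 0.1 and analysed in limma 3.58.1 (R 4.3.3; 1 mean per arm, no covariates, eBayes with a trend, Benjamini-Hochberg adjustment, threshold 0.05). This scale understates changes of low genes. The fit was tested on simulated data. Fragment numbers were estimated from FPKM steps and GENCODE M21 exon lengths. Each value is 1 library, and p-values measure the spread between tumors. Exact permutation tests of single values, two-sided, used the 400 relabelings within treatment pairs, and correlations by 100000 permutations, in Python 3.11.15 with scipy 1.17.1. Promoter windows and their sequences are from RefSeq (GRCm38.p6).

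The 7 genes and all lists were chosen with earlier results of these data known. Genes named are the 7, the 3 most like each, and from each list those called in the palbociclib effect or, with fewer than 2 called, the 2 with the smallest p and the 2 with the highest mean; Usp7, Hells, Mat2a, Tdg, Gadd45g, Ogt, Kcnq1ot1, Dazl, Mael, Sycp1, Epcam and Cdh1 were added after their values were seen. Results of 2 genes that this rule names are not reported here. Tumors of 1 arm correlated at r = 0.954 to 0.987. Alternatives were pseudocounts of 1 and 0.01, filters at 1 and at any FPKM above 0, TPM, quantile normalization, eBayes without a trend, a replicate block, only the arms compared, 3 tumors left out together, tissue covariates, and each tumor left out.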

Additional observations from a re-analysis of the deposited data

How the results depend on the processing

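None of the 6 tested genes of DNA methylation was called in 6 contrasts under any of the alternatives (804 values, of which 27 changed sign). Few genes of any kind were called, from 0.0% to 0.313% of all 15350 in the main fit. Over its alternatives the palbociclib effect called 0 to 758 genes, and the anti-PD-1 effect 0 to 3. With so few calls, 0 of 6 does not show that these genes were unchanged. Tet1, under the filter, was not tested. For the palbociclib effect, the adjusted p-value over 22 alternatives came lowest for Tet3, at 0.0576 without vehicle replicate 1, and for Tet2, at 0.0597 without the same tumor. The estimate ranged from -0.44 to -0.16 for Tet3 and from -1.02 to -0.27 for Tet2, the value nearest 0 being that with tissue covariates in both. Dnmt1 ranged from -0.020 (quantile normalization) to 0.08, and Uhrf1 from 0.06 to 0.19. The palbociclib effect on Dnmt3a ranged from -0.12 to 0.062 over single tumors left out, turning positive without anti-PD-1 replicate 3 and without vehicle replicate 1 (0.00052).

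The other sign changes all concerned results that were not called. For palbociclib against vehicle, Dnmt3a went to -0.0053 with TPM, -0.078 with quantile normalization, -0.0031 with tissue covariates and -0.032 without palbociclib replicate 2 and combination replicates 1 and 2, and ranged from -0.13 to 0.10 over single tumors left out. For combination against anti-PD-1, Dnmt3b went to -0.013 with TPM, -0.089 with quantile normalization, -0.0098 with covariates and -0.069 without the 3 tumors, with -0.16 to 0.16 over single tumors, and Dnmt3a ranged from -0.24 to 0.12. The anti-PD-1 effect on Dnmt3b was 0.023 with quantile normalization. Without the 3 tumors the interaction was 0.00089 for Uhrf1 and 0.20 for Tet3, and over single tumors it ranged from -0.19 to 0.015 for Tet3, from -0.28 to 0.80 for Tet2 and from -0.24 to 0.12 for Dnmt3a.

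Counts of called genes were unstable. The palbociclib effect called 11 genes without a filter, 0 without a trend, 0 with covariates, 2 without the 3 tumors and 0 to 758 over single tumors. Palbociclib against vehicle called 34 with TPM, 1 with quantile normalization, 6 without a trend, 0 with only the arms compared, 4 with covariates and 1 to 46 over single tumors. Combination against anti-PD-1 called 2 without a filter, 0 with only the arms compared, 0 with covariates, 2 without the 3 tumors and 0 to 6 over single tumors. Combination against vehicle called 5 with a pseudocount of 0.01, 1 without a trend, 0 with covariates and 0 to 5 over single tumors. The anti-PD-1 effect called 1 with the filter at 1, 3 without a filter, 2 without the 3 tumors and 0 to 1 over single tumors. The interaction called 1 with a pseudocount of 0.01, 2 with the filter at 1, 7 without a filter, 1 with TPM, 2 with quantile normalization, 5 with covariates, 2 without the 3 tumors and 0 to 3 over single tumors. The cause was not tested.

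The replicate numbers did not pair the tumors (correlations of deviations from the arm means from -0.21 to 0.45 for tumors of 1 number). With a replicate block the palbociclib effect called 129 genes, palbociclib against vehicle 51 and combination against vehicle 1, and no gene of DNA methylation was added.

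Dnmt1 minus the S phase genes kept its sign, at -0.25 without the 3 tumors (exact permutation test, p = 0.125, 40 relabelings) and from -0.31 to -0.19 over single tumors. Few fragments limit Tet1, Dnmt3b and most germline genes.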
